A study of Mus musculus with 6 samples.

Results

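Retinoic acid is made, moved, sensed and destroyed inside the testis, and 9 genes that carry out these steps are described here: Rdh10, Dhrs3, Aldh1a1, Aldh1a2, Cyp26a1, Cyp26b1, Crabp1, Rara and Rarg. They were named by symbol, each matched 1 Ensembl identifier, and they are 9 of the 53700 genes in the deposited count tables. All 9 had enough reads to be tested. Whole testes of mice at postnatal day 45 were the source of the RNA, in 3 libraries from mice of the MSL3 WT genotype (WT) and 3 from mice of the MSL3 cKO genotype (cKO), a floxed conditional knockout. Every mouse, wild type included, carries the strain label Msl3em1Forni/C57BL/6J, which names an engineered Msl3 allele on the C57BL/6J background. The recombinase, the cells in which it is active and the deleted exons are not given in the sources used here. The libraries are labelled as biological replicates.

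Retinoic acid, the active form of vitamin A, is made by oxidising retinol to retinal and retinal to the acid. Cytochrome P450 enzymes of the Cyp26 family destroy it, and nuclear receptors (RARs, bound to DNA with RXR partners) read it. In the seminiferous epithelium it drives spermatogonia to differentiate and germ cells to enter meiosis, partly through Stra8, and it is also needed when spermatids are released.

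Some genes of the pathway are themselves switched on by the receptor, and the start regions of such genes can hold the letters it binds. A RAR and its RXR partner bind pairs of a short half-site in the same orientation, and a pair with 5 bases between is called DR5. The windows searched ran from 250 bases before to 50 after each RefSeq gene start (build GRCm38.p6), on both strands, for a pair of half-sites with 5 or with 2 bases (DR2) between. A half-site was AGGTCA in its classical form, or AGTTCA, a variant form, or GGTTCA as a further variant, or else GGGTCA. The known elements of Cyp26a1 and Rarb are among those from which such forms were described, so a match in these genes is a description that supports nothing. Of the 9 genes, 8 had such windows, and 1 of them, Cyp26a1, held a DR5 while none held a DR2. Over all genes with a window, 0.115% (31 of 27025) held a DR5 and 0.311% a DR2. Of 74 other genes of retinoid biology listed for this work, 55 had windows and 1, the receptor gene Rarb, held a DR5. Both matches are shown because Cyp26a1 and Rarb are textbook targets of the receptor, with the half-sites in capitals and the strand of the match at chr19:37697776-37697792 (minus) and chr14:16575513-16575529 (minus).
Cyp26a1 DR5: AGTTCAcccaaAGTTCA
Rarb DR5: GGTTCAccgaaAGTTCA
The stretches before the starts of both Cyp26 genes are set side by side because the group means of their RNA, described further on, differed in opposite directions. The first is chr19:37697558-37697797 on the plus strand, in which the half-sites in capitals read as their reverse complement. The second is chr6:84593909-84594060 on the minus strand. The printed stretches differ in length, at 240 and 152 bases, because each stops before both the RefSeq start and the start in the GENCODE annotation. The search itself covered the whole window of 300 bases for each gene, and in that of Cyp26b1 the searched letters were not found.
Cyp26a1 upstream: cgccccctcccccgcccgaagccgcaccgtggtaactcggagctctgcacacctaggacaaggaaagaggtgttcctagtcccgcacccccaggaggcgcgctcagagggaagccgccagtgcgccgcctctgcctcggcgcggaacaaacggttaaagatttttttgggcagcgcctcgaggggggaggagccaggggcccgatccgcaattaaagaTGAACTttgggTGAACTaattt
Cyp26b1 upstream: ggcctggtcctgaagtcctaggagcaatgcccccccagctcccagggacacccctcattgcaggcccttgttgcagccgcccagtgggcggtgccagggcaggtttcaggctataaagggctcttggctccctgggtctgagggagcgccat
A match is a description of letters, and the count libraries hold no measurement of binding. The Cyp26 pair was chosen from its values, and neither difference passed the threshold (edgeR adjusted p 0.473 for Cyp26a1 and 0.288 for Cyp26b1). A link between these letters and the RNA was not tested.

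The libraries held between 56991431 and 73766444 reads assigned to genes. Levels below are CPM, library-size-scaled read counts with TMM factors, and differences are log2 fold changes of cKO relative to WT from edgeR's quasi-likelihood test with Benjamini-Hochberg adjustment over 21902 genes. Msl3 itself had a level of 16.9 ± 1.68 CPM (SD, n = 3) in WT and 15.6 ± 0.649 CPM (SD, n = 3) in cKO; its groups overlapped (edgeR adjusted p 0.551), so the gene count does not separate the labels and the groups are called by their labels. The tissue label was checked against marker genes. All 10 markers of elongating spermatids were detected in every library and summed to between 18118 and 22776 CPM, all 12 Sertoli markers were detected, and of 10 epididymal markers 1 reached the test, with sums between 4.04 and 5.79 CPM and Lcn8 at 0 in every library. In RNA from whole testis, fewer cells of a type and less RNA per cell cannot be told apart.

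None of the 9 genes passed the edgeR adjusted threshold of 0.05, where 0.0183% of all tested genes did. At an unadjusted p under 0.05 there were 3 of the 9, where the share over all genes tested was 13.9%. Cyp26b1 and Rara were the 2 with higher means in cKO (7.33% of all genes) and Aldh1a1 the 1 with a lower mean (6.54%). The groups did not overlap for 2 of the 9, against 18.9% of all genes tested. Both of these, Cyp26b1 and Rara, were higher in cKO, and of all 21902 genes tested 2201 were higher in cKO without overlap. DESeq2 called none of the 9 and left the adjusted p of Cyp26a1 undefined. The fold changes ran from -0.34 to 0.27, with a median of 0.06 beside 0.0031 over all genes, and 5 of the 9 were above 0 (50.7% of all genes) and 4 below (49.3%). The median size of the change, regardless of sign, was 0.20 for the 9 genes and 0.12 for all genes.

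**Figure D1:**
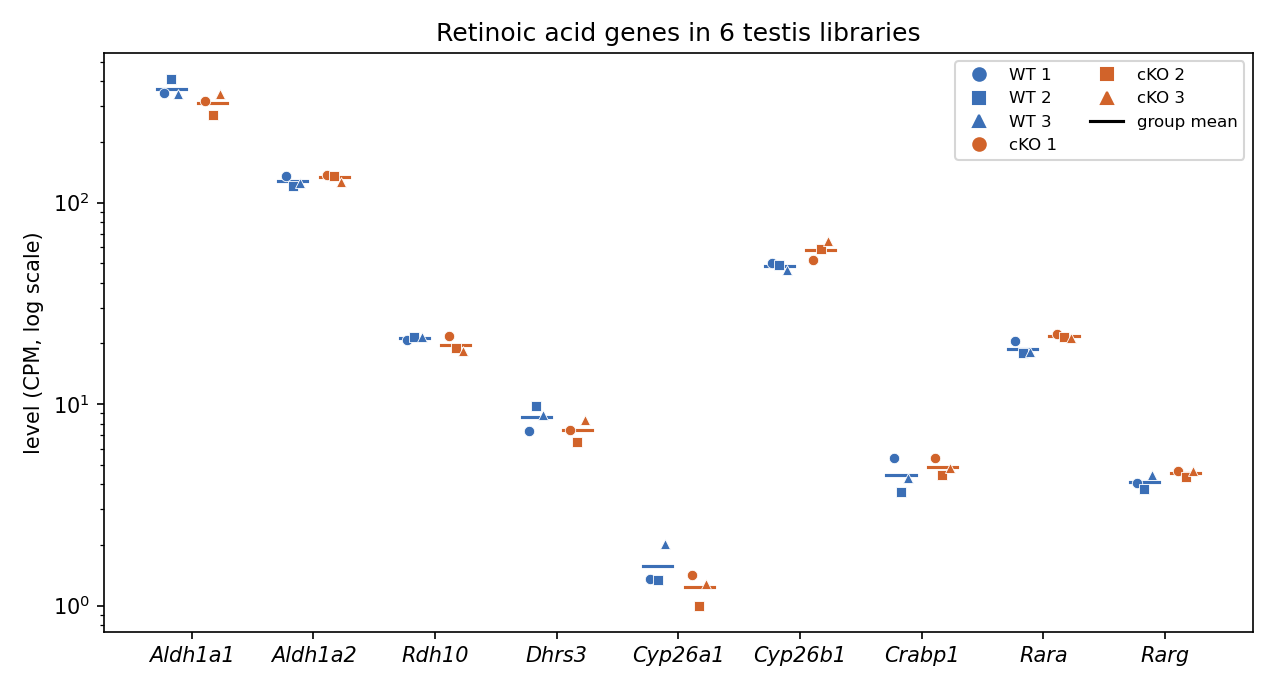
Level of each of the 9 genes in CPM (vertical axis, log scale) in the 3 WT libraries (blue) and the 3 cKO libraries (orange), with a marker shape per replicate number and a line at each group mean. The levels span from 1.00 CPM for Cyp26a1 in cKO replicate 2 to 408 CPM for Aldh1a1 in WT replicate 2, and the groups stand apart for Cyp26b1 and Rara alone among the 9.

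The levels were ordered by their value per kilobase of annotated exon, so that genes can be set beside each other. This length merges the exons of all annotated transcripts of a gene, whichever of them is expressed, and the order depends on it. In WT, Aldh1a1 led with 74.3 ± 7.29 CPM per kb (SD, n = 3), followed by Aldh1a2 with 56.2 ± 3.15 (SD, n = 3). Far below them on the same scale came Cyp26b1 with 9.04, Crabp1 with 5.54, Rdh10 with 5.11, Rara with 4.32, Dhrs3 with 2.96, Rarg with 0.961 and Cyp26a1 with 0.795 CPM per kb. The libraries of neighbours in this order overlapped for Crabp1 and Rdh10 and for Rarg and Cyp26a1, so the order within each of these pairs is not resolved, and they did not overlap for the other neighbours. In cKO, Aldh1a1 had 63.0 ± 7.60 CPM per kb (SD, n = 3) and Aldh1a2 58.8 ± 2.41 (SD, n = 3), and their libraries overlapped. Rara and Rdh10 changed places in the order of the cKO means, with overlapping libraries, and the other genes kept theirs. Among these 9 genes, the enzymes of the second oxidation thus stood highest per length in both groups. The retinol dehydrogenase Rdh10 was measured at a level nearer to that of the receptors. Outside the 9, the retinal dehydrogenase Aldh1a3 had 0.990 CPM per kb in WT and 0.959 in cKO. The retinal reductase Rdh11 had 102 and 101 CPM per kb, above Aldh1a1.

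Rdh10 (ENSMUSG00000025921, chr1:16105774-16133734) encodes the retinol dehydrogenase that makes retinal, the first step of synthesis. Its level was 20.9, 21.4 and 21.5 CPM in WT replicates 1 to 3 and 21.9, 19.0 and 18.3 CPM in cKO replicates 1 to 3. The groups overlapped because cKO replicate 1 was the highest of all 6 libraries while the other 2 cKO libraries were the lowest. edgeR gave a log2 fold change of -0.11 (SE 0.083), which puts the cKO level between 81.9% and 105% of WT at 95% confidence (edgeR adjusted p 0.586). The fold change was -0.19 without cKO replicate 1 and -0.055 without cKO replicate 3.

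Dhrs3 (ENSMUSG00000066026, chr4:144892827-144928209) encodes a retinal reductase that runs the same step backwards, forms a complex with Rdh10 and is induced by retinoic acid in many tissues. Its level was 7.38, 9.83 and 8.78 CPM in the WT libraries and 7.40, 6.50 and 8.37 CPM in the cKO libraries. WT replicate 2 was highest, cKO replicate 2 lowest, and the groups overlapped. Its log2 fold change was -0.22 (SE 0.12), with 95% limits of 70.9% and 103% of WT (edgeR adjusted p 0.442). It was -0.12 without WT replicate 2 and -0.14 without cKO replicate 2.

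Aldh1a1 (ENSMUSG00000053279, chr19:20492715-20643465) encodes a retinal dehydrogenase known from Sertoli and Leydig cells. It had 349, 408 and 344 CPM in WT and 318, 270 and 344 CPM in cKO. WT replicate 2 was the highest library and cKO replicate 2 the lowest, and cKO replicate 3 lay at the level of WT replicates 1 and 3, so the groups overlapped. The log2 fold change was -0.24 (SE 0.096, unadjusted p 0.0284, edgeR adjusted p 0.315), with 95% limits of 73.2% and 97.9% of WT. It was -0.15 without cKO replicate 2 and -0.16 without WT replicate 2, a change of more than 1.5 times in each case.

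Markers of the cells that express Aldh1a1 were read beside it. Of 10 Leydig markers 7 were lower in cKO, and their summed level was 960 to 1119 CPM in WT and 878 to 1118 CPM in cKO, with cKO replicate 2 again the lowest library. Of 12 Sertoli markers 11 were higher in cKO, with sums of 1565 to 1854 CPM in WT and 1564 to 2015 CPM in cKO. No marker of either list was at 0, and the part of these cells in the Aldh1a1 value was not tested. Aldh1a7, a close relative on which 1.01% of the 75-base stretches of Aldh1a1 transcripts also occur, had 20.7 ± 2.06 CPM (SD, n = 3) in WT and an edgeR adjusted p of 0.448, with cKO replicate 2 lowest as well. None of the 75-base stretches of the other 8 genes occurred in transcripts of another gene. With stretches of 31 bases, 5.7% of those of Aldh1a1 also occurred in Aldh1a7, and 0.254% of those of Rara occurred in transcripts of another gene. Aldh1a1 also spans C730002L08Rik, a gene on the opposite strand that shares no exon with it.

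Aldh1a2 (ENSMUSG00000013584, chr9:71215789-71296243) encodes the retinal dehydrogenase of meiotic and later germ cells. Its level was 135, 121 and 125 CPM in the WT libraries and 137, 135 and 127 CPM in the cKO libraries. It varied least of the 9 genes, with the highest library 1.13 times the lowest. Between the groups the log2 fold change was 0.06 (SE 0.069), with 95% limits of 94.2% and 116% of WT (edgeR adjusted p 0.717). Leaving out 1 library at a time gave values from 0.03, without WT replicate 2, to 0.11, without WT replicate 1, with 0.04 without cKO replicate 1 and 0.10 without cKO replicate 3. Its ratio to Aldh1a1 per length was 0.846, 0.648 and 0.795 in WT and 0.943, 1.09 and 0.804 in cKO. Aldh1a1 was thus the higher of both in 5 of the 6 libraries, cKO replicate 2 being the exception, and the groups overlapped in this ratio.

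Cyp26a1 (ENSMUSG00000024987, chr19:37697798-37701536), whose start region holds the DR5 printed above, encodes a retinoic acid hydroxylase. It was counted at 80, 87 and 126 reads in WT and 104, 56 and 75 reads in cKO, or 1.36, 1.34 and 2.03 CPM and 1.43, 1.00 and 1.28 CPM. WT replicate 3 stood above all other libraries and cKO replicate 2 below them, a 2.03-fold range that was the widest of the 9 genes, and the groups overlapped. The log2 fold change was -0.34 (SE 0.20), with 95% limits of 58.0% and 107% of WT (edgeR adjusted p 0.473). It was -0.13 without WT replicate 3 and -0.21 without cKO replicate 2.

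Cyp26b1 (ENSMUSG00000063415, chr6:84571414-84593908) encodes the other hydroxylase, the one known to keep retinoic acid from germ cells of the fetal testis. It had 50.2, 49.0 and 46.0 CPM in WT and 51.9, 58.8 and 64.1 CPM in cKO. All 3 cKO libraries lay above all WT libraries, cKO replicate 1 by a small step and cKO replicate 3 by the largest. The log2 fold change was 0.27 (SE 0.083, unadjusted p 0.00738, edgeR adjusted p 0.288), with 95% limits of 106% and 136% of WT. Without cKO replicate 1 it was 0.34 and passed the threshold (edgeR adjusted p 0.0300), the only alternative of the 14 run that called it. In that fit 628 of all genes were called (2.82%), of which 549 were higher in cKO (2.47% of all genes).

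Several somatic markers were read beside Cyp26b1. Of 8 endothelial markers 6 were higher in cKO, with sums of 50.6 to 54.4 CPM in WT and 53.7 to 62.3 CPM in cKO, and cKO replicates 2 and 3, which had the most Cyp26b1, both summed to 62.3 CPM. Of 7 peritubular myoid markers 2 were higher, with sums of 438 to 466 CPM in WT and 436 to 450 CPM in cKO. Of 10 macrophage markers 1 was higher, with sums of 137 to 168 CPM in WT and 134 to 153 CPM in cKO. Of 10 Leydig markers 3 were higher, and the Leydig and Sertoli sums are those given for Aldh1a1. Among germ cells, 7 of 10 preleptotene and early meiotic markers were higher in cKO. Their sums were also highest in cKO replicates 2 and 3, at 1096 and 1043 CPM, so this pattern was not particular to the endothelial list. All of these markers were detected in every library, and their part in the Cyp26b1 value was not tested.

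The 2 hydroxylases differed in level by about an order of magnitude within each library. Per length, Cyp26b1 exceeded Cyp26a1 13.7-fold, 13.5-fold and 8.42-fold in the WT libraries and 13.5-fold, 21.8-fold and 18.5-fold in the cKO libraries. cKO replicates 2 and 3 had the highest ratios and WT replicate 3 the lowest, while cKO replicate 1 lay among the WT libraries. On the log2 scale the ratio was 3.53 ± 0.40 (SD, n = 3) in WT and 4.14 ± 0.35 (SD, n = 3) in cKO. This difference of 0.60 was 0.37 without WT replicate 3. Cyp26c1, the third gene of the family, had 1 read in WT replicate 3 and 0 in the other 5 libraries, below the number that can be tested.

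**Figure D2:**
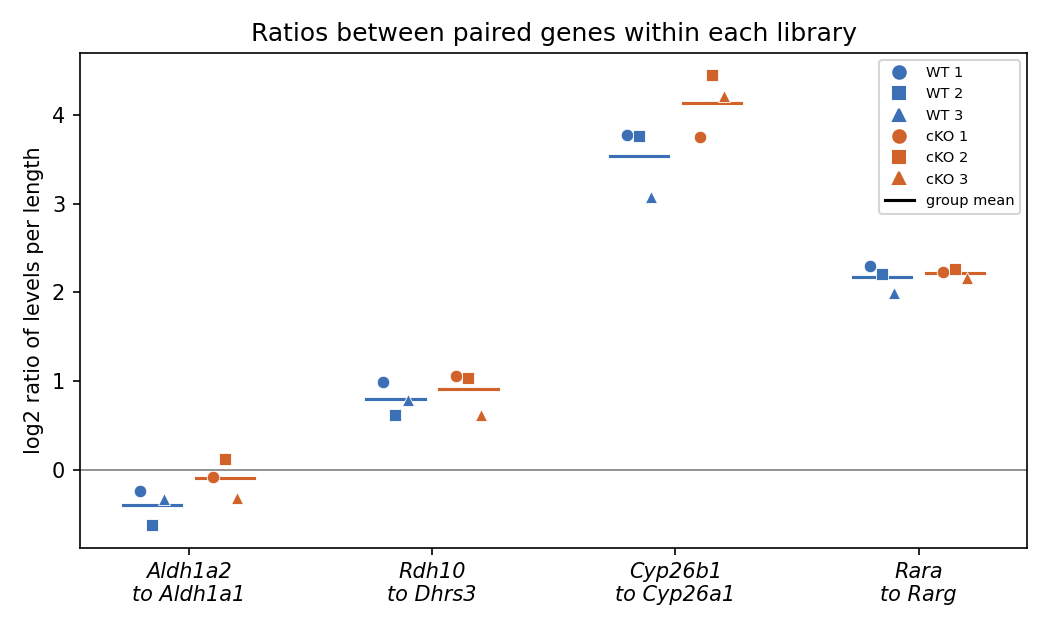
Log2 ratio of the levels per length of 4 pairs of genes (horizontal axis) within each library, with a marker shape per replicate and a line at each group mean. The groups overlap for every pair, and Cyp26b1 to Cyp26a1 shows the widest gap between the means, 3.53 in WT and 4.14 in cKO.

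Rdh10 exceeded its partner Dhrs3 per length 1.99-fold, 1.53-fold and 1.72-fold in WT and 2.08-fold, 2.05-fold and 1.54-fold in cKO. The forward enzyme was higher than the reverse enzyme in all 6 libraries, and the groups overlapped. The log2 ratio was 0.80 ± 0.19 (SD, n = 3) in WT and 0.90 ± 0.25 (SD, n = 3) in cKO, a difference smaller than the spread within either group.

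Crabp1 (ENSMUSG00000032291, chr9:54764748-54773110) encodes a cytosolic protein that binds retinoic acid and is known from differentiating spermatogonia. Its level was 5.38, 3.68 and 4.28 CPM in WT and 5.39, 4.45 and 4.79 CPM in cKO. Replicate 1 was highest in both groups and WT replicate 2 lowest of all, so the groups overlapped. Its fold change was 0.14 on the log2 scale (SE 0.14, edgeR adjusted p 0.703), with 95% limits of 88.7% and 137% of WT. It was 0.02 without WT replicate 2, 0.06 without cKO replicate 1 and 0.30 without WT replicate 1 (edgeR adjusted p 0.259). The summed level of 13 spermatogonial markers was 806, 729 and 747 CPM in WT and 850, 745 and 754 CPM in cKO, with the same highest and lowest libraries as Crabp1, and 11 of the 13 were higher in cKO. None of these markers was at 0, and their part in the Crabp1 value was not tested. The related carrier gene Crabp2 had between 2 and 13 reads per library and was not tested.

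Rara (ENSMUSG00000037992, chr11:98927818-98974942) encodes the retinoic acid receptor known from Sertoli cells and later germ cells. It had 20.4, 18.0 and 18.1 CPM in WT and 22.2, 21.4 and 21.4 CPM in cKO. Every cKO library lay above every WT library, the step from WT replicate 1 to the lowest cKO libraries being the narrowest. edgeR gave Rara a log2 fold change of 0.20 (SE 0.078, unadjusted p 0.0236, edgeR adjusted p 0.312), with 95% limits of 102% and 129% of WT. The lowest adjusted p over 14 alternatives was 0.143, without WT replicate 1. Markers of the cells known for Rara were read beside it. All 10 round spermatid markers were lower in cKO, 4 of them at an unadjusted p under 0.05, and their summed level was 1510 to 1656 CPM in WT and 1407 to 1475 CPM in cKO, without overlap. The Sertoli markers, 11 of 12 higher in cKO, had the sums given beside Aldh1a1, which overlapped between the groups. Of 9 pachytene and diplotene spermatocyte markers 5 were higher and 4 lower in cKO. Of 10 elongating spermatid markers 4 were higher and 6 lower. The sums of both of these lists overlapped between the groups as well. No round spermatid marker was at 0, and the part of these cells in the Rara value was not tested.

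Rarg (ENSMUSG00000001288, chr15:102234938-102257517) encodes the receptor through which spermatogonia respond to retinoic acid. Its level was 4.05, 3.79 and 4.44 CPM in WT and 4.63, 4.36 and 4.66 CPM in cKO. Only WT replicate 3 reached into the range of the cKO libraries, above cKO replicate 2. For Rarg the log2 fold change was 0.15 (SE 0.11), with 95% limits of 94.2% and 131% of WT (edgeR adjusted p 0.554), and it was 0.10 without WT replicate 2. Rara exceeded Rarg per length between 3.98-fold and 4.93-fold in WT and between 4.48-fold and 4.79-fold in cKO, and the mean of this log2 ratio was 2.17 in WT and 2.22 in cKO.

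**Figure D3:**
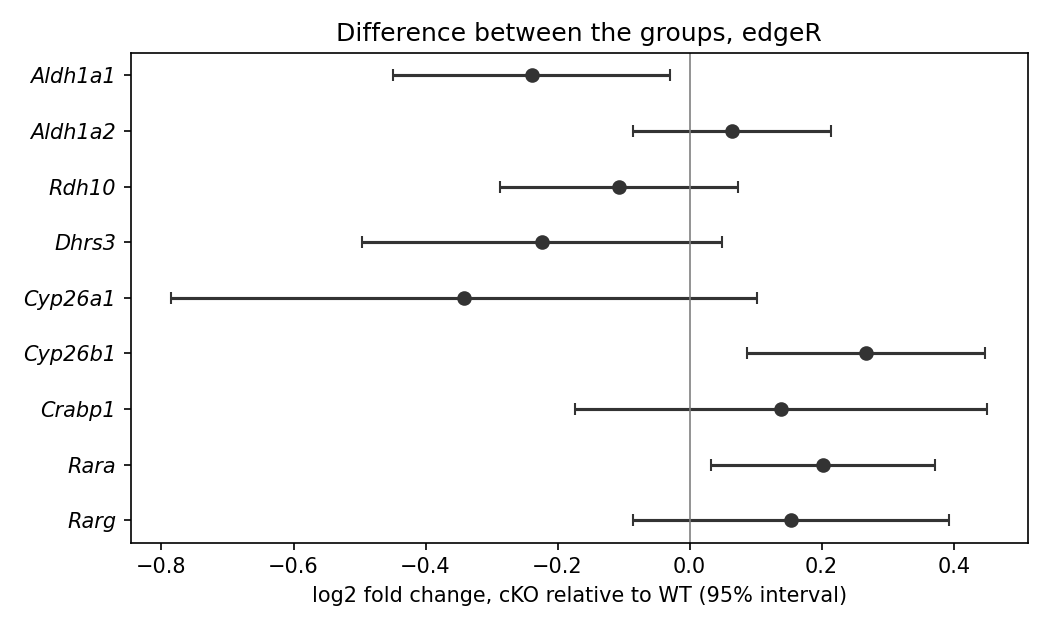
Log2 fold change of cKO relative to WT (horizontal axis) for each of the 9 genes, with the 95% interval from the edgeR fit as bars. The intervals of Aldh1a1, Cyp26b1 and Rara lie to 1 side of 0, without adjustment for the number of genes, and those of the other 6 include it.

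The libraries differed among themselves in the balance of these genes. WT replicate 2 had the highest Aldh1a1 and Dhrs3 of the 6 libraries and the lowest Aldh1a2, Crabp1, Rara and Rarg. cKO replicate 1 had the highest Aldh1a2, Rdh10, Crabp1 and Rara, and cKO replicate 2 had the lowest Aldh1a1, Dhrs3 and Cyp26a1. The highest library exceeded the lowest 1.51-fold for Aldh1a1 and for Dhrs3, 1.46-fold for Crabp1 and 1.39-fold for Cyp26b1, and 1.24-fold or less for Rara, Rarg, Rdh10 and Aldh1a2.

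**Figure D4:**
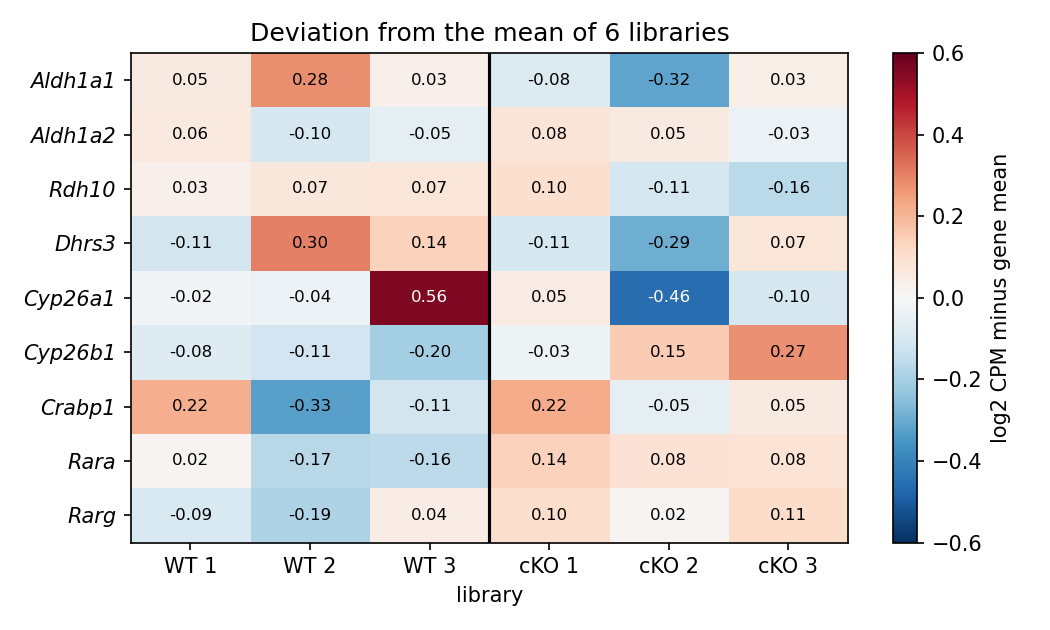
Deviation of each gene (rows) in each library (columns) from its mean over the 6 libraries, in log2 CPM, with WT to the left and cKO to the right of the black line. Aldh1a1 and Dhrs3 share their extremes, 0.28 and 0.30 in WT replicate 2 and -0.32 and -0.29 in cKO replicate 2, and Cyp26a1 has the widest range, from -0.46 to 0.56.

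The other genes of retinoid biology were counted by role. Of 74 listed genes 62 were tested, and 0 passed the edgeR adjusted threshold, while 10 had an unadjusted p under 0.05 (8 higher and 2 lower in cKO), where 13.9% of all genes had such a p (7.33% higher and 6.54% lower). The groups did not overlap for 11 of the 62, near the share over all genes. DESeq2 called 0 of them.

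Of 10 tested genes for uptake, binding and storage of retinol, 6 were above and 4 below 0, with a median of 0.01. Rbp7, a retinol-binding protein gene, had 0.338 ± 0.0816 CPM (SD, n = 3) in WT and 0.202 ± 0.0419 CPM (SD, n = 3) in cKO, without overlap (edgeR adjusted p 0.335), from 9 to 26 reads per library. Lpl, which encodes lipoprotein lipase and is named after its values were seen, had 147, 151 and 112 reads in WT and 140, 198 and 326 reads in cKO, or 2.21 ± 0.364 CPM (SD, n = 3) and 3.68 ± 1.84 CPM (SD, n = 3). The groups overlapped, with cKO replicate 1 in the WT range, and the log2 fold change was 0.72 (SE 0.30, unadjusted p 0.0314, edgeR adjusted p 0.323). Lrat, which stores retinol as esters, had 12.6 ± 0.628 CPM (SD, n = 3) and 12.7 ± 0.362 CPM (SD, n = 3). Stra6, the membrane receptor for retinol uptake, had 5.08 ± 1.01 CPM (SD, n = 3) and 5.62 ± 0.949 CPM (SD, n = 3).

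Among the oxidising and reducing enzymes outside the 9 genes, 13 of 15 tested were below 0, with a median of -0.07, where 49.3% of all genes were below 0. Adh4, an alcohol dehydrogenase that can oxidise retinol, had 15.3, 15.4 and 15.8 CPM in WT and 13.7, 12.6 and 13.1 CPM in cKO. Its groups did not overlap, and the log2 fold change was -0.24 (SE 0.076, edgeR adjusted p 0.288). Rdh11, a retinal reductase with the highest CPM of this list, had 352 ± 7.26 CPM (SD, n = 3) in WT and 351 ± 5.26 CPM (SD, n = 3) in cKO, and was named after its values were seen. Aldh1a3, the third retinal dehydrogenase of the family, had 4.57 ± 0.382 CPM (SD, n = 3) and 4.43 ± 0.896 CPM (SD, n = 3), an adjusted p of 0.919 in edgeR. Of 3 tested genes for carriage and breakdown, 1 was above and 2 were below 0, with fold changes from -0.13 to 0.0015.

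Of 20 tested receptors and coregulators, 18 were above 0, with a median of 0.10, where 50.7% of all genes were above 0. In this list 7 had an unadjusted p under 0.05, all higher in cKO, against 7.33% of all genes in that direction. The Sertoli markers (11 of 12 higher) and spermatogonial markers (11 of 13 higher) stand beside this list too, with the sums given above. The round spermatid markers were lower (10 of 10). Higher in cKO were also 7 of 10 early meiotic, 6 of 8 endothelial and 5 of 9 pachytene and diplotene markers. So were 4 of 10 elongating spermatid, 3 of 10 Leydig, 2 of 7 peritubular myoid and 1 of 10 macrophage markers. The Sertoli and spermatogonial sums were highest in cKO replicate 1 (2015 and 850 CPM). The part of these cells in the list was not tested. Of the RXR partners, Rxra had 40.1 ± 2.21 CPM (SD, n = 3) in WT and 40.8 ± 1.87 CPM (SD, n = 3) in cKO, and Rxrb had 27.5 ± 2.71 CPM (SD, n = 3) and 28.3 ± 2.20 CPM (SD, n = 3). Rxrg had 1.92 ± 0.303 CPM (SD, n = 3) and 1.56 ± 0.0667 CPM (SD, n = 3), without overlap (edgeR adjusted p 0.409). Rarb, the receptor gene with the DR5 printed above, had 0.953, 0.878 and 0.821 CPM in WT and 0.959, 0.983 and 0.462 CPM in cKO, with cKO replicate 3 apart from the rest (edgeR adjusted p 0.859).

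This list held 7 of the 10 unadjusted differences. The coactivators Ncoa2 and Ncoa3 had log2 fold changes of 0.29 and 0.22, and the corepressor subunit Tbl1x and the nuclear receptor Ppard had 0.16 and 0.27, all without overlap and with edgeR adjusted p from 0.288 to 0.355. Ncor1, Crebbp and Ep300, named after their values were seen, overlapped between the groups: in cKO they had 87.6, 35.2 and 46.3 CPM in replicate 1 and 136, 56.1 and 71.3 CPM in replicate 2, with replicate 3 between. In the edgeR fit without cKO replicate 1, 5 of the 74 genes were called, all higher: Crebbp, Ep300, Lpl, Ncoa2 and Ncor1. The share of all genes called higher in that fit was 2.47%. The annotated exons of Crebbp, Ep300, Lpl, Ncoa2 and Ncor1 are long, at 13.5, 14.3, 10.5, 15.6 and 12.8 kb. Nr2c2 (14.9 kb) and Nrip1 (11.5 kb) of the same list are long too and were not called. The part of transcript length in these calls was not tested.

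Germ cell and Sertoli cell genes that respond to retinoic acid were listed as a readout of the pathway. Of 14 tested, 12 were above and 2 below 0, with a median of 0.09, where 50.7% of all genes were above 0. Of the 14, edgeR called 0, with 0 at an unadjusted p under 0.05 and 0 calls by DESeq2. Kit, Sohlh1 and Sohlh2 are also among the spermatogonial markers, Stra8, Gm4969 and Rec8 among the early meiotic markers and Rhox5 among the Sertoli markers. This list is therefore not separate from those marker lists. Stra8, which retinoic acid induces before meiosis, had 14.3, 10.5 and 12.8 CPM in WT and 13.4, 10.8 and 10.8 CPM in cKO. The groups overlapped, and the log2 fold change was -0.10 (SE 0.12), with 95% limits of 77.7% and 113% of WT (edgeR adjusted p 0.769).

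**Figure D5:**
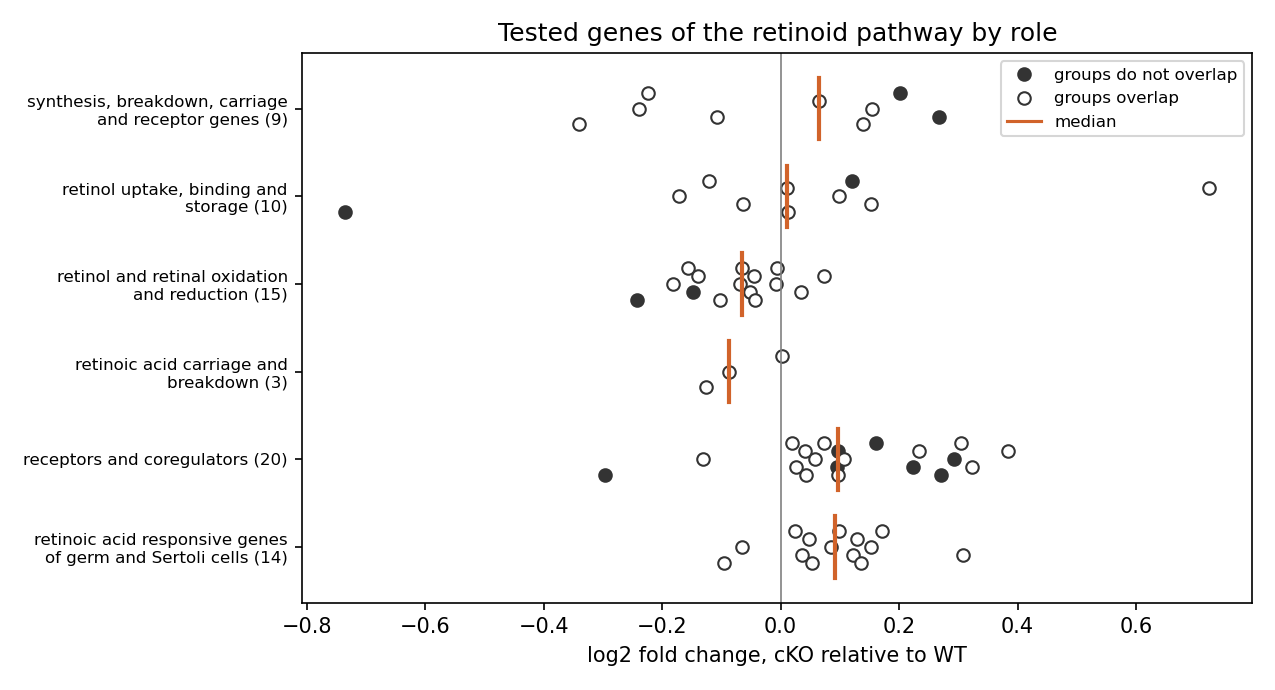
Log2 fold change of cKO relative to WT (horizontal axis) of each tested gene, by role (number of genes in brackets), with filled points where the libraries of the groups do not overlap and an orange line at each median. Ncoa2, at 0.29, is the rightmost filled point, and 18 of the 20 receptors and coregulators lie right of 0.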

How the data were processed

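RNA of whole testes was sequenced as single-end reads in 6 libraries. The labels do not give the number of testes per library. The authors deposited raw read counts per Ensembl gene for each library, unstranded and by strand. STAR, HTSeq, DESeq2 and mm10 are named per the submitters' processing notes, and versions and annotation release are not given in the sources used here. Opposite-strand counts (96.0% to 96.2% of both strand columns) were used. Lines for unassigned reads (14.8% to 16.7%) were left out. GENCODE M21 (GRCm38) matched 52147 of 53700 identifiers and gave symbols, coordinates and merged exon lengths. Promoter windows came from RefSeq (GRCm38.p6).

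All 6 libraries were fitted with edgeR 4.0.16 in R 4.3.3 (TMM, filterByExpr with a minimum count of 10, quasi-likelihood F test without covariates, Benjamini-Hochberg over 21902 genes, threshold 0.05). Standard errors were derived from F. Where nothing says more than "biological replicate", p-values measure the spread between these samples. The genes and lists were chosen with earlier results of these data known. Some pathway genes are not reported here and are in no list count. Named pathway genes were 10 always given, any past the threshold, and up to 8 with an unadjusted p under 0.05 and no overlap. On simulated counts for this comparison, 81% of genes changed by a log2 value of 1 were found (21666 genes tested) and 56% of those changed by 0.5 (21673 genes). The fold changes of the 9 genes, from -0.34 to 0.27, were smaller than both simulated sizes. The share found at such sizes was not simulated. Alternatives were RLE scaling, library totals, other low-count filters, unstranded counts, a replicate block, robust fitting, DESeq2 1.42.0 and each library left out.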

Additional observations from a re-analysis of the deposited data

How the results depend on the processing

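The 9 genes kept the sign of their fold change in all 14 alternatives. edgeR and DESeq2 called none of them in 13 alternatives and 1 (Cyp26b1, log2 fold change 0.34, adjusted p 0.0300) without cKO replicate 1, so leaving out 1 library at a time gave from 0 to 1 called genes. There, Cyp26b1 ranged from 0.19 to 0.34, Rara from 0.16 to 0.27 and Aldh1a1 from -0.32 to -0.15. Of the other 74 pathway genes, 0 were called with all libraries, 5 without the filter on low counts, 0 with DESeq2, and from 0 to 5 with a library left out. Over all genes the count of 4 became 757 without the filter, 2 with unstranded counts and 193 with DESeq2, and ran from 1 to 628 with a library left out (628 without cKO replicate 1, 549 of them higher in cKO). The cause was not tested.

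For libraries with the same replicate number, deviations from the group mean had correlations over genes of 0.38, 0.26 and -0.07. WT replicates 1 and 2 correlated best with their own number and WT replicate 3 did not. Deviations of 3 libraries from their own group mean are not independent, so these correlations cannot decide whether the samples were paired. The labels name no pairing, and the numbers were not used as one. With a replicate block, 49 genes were called over all genes, 0 of the pathway genes and 0 of the 9.

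Depth limits Cyp26a1 most, with 56 to 126 reads per library, and leaves Cyp26c1 and Crabp2 untested.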
